A study of Homo sapiens with 12 samples.

Results

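SOX4 was read on the arrays by 6 probe sets, short groups of oligonucleotides that each report on 1 stretch of a transcript, out of 54675 on the array. They were found as every row whose only annotated gene symbol was SOX4. SOX4 was selected on its higher level in shBCL9 than in shGFP, so its values in the infected arm, and the order of the 4 groups, are a description with no test. All RNA came from H929, a long-established line grown from a human multiple myeloma, which is a tumour of plasma cells, the antibody-secreting end stage of B cells. There were 12 arrays, 3 in each of 4 groups. An infected arm compared cells carrying the control hairpin shGFP with cells carrying shBCL9, a hairpin against BCL9, and the cells of both groups were GFP-positive by sorting. A transfected arm compared the worm microRNA cel-miR-67, used as its control, with the human miR-30 members a, b, c, d and e, and whether these 5 were given together is not stated. No untreated H929 cells were analysed here. Whether replicate arrays stand for separate cultures is not stated either, so p-values measure no more than the scatter among arrays, and that scatter may be technical.

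SOX4 is a transcription factor with a high-mobility-group (HMG) box, the DNA-binding domain that defines the SOX family, and it forms group C of that family with SOX11 and SOX12. It is known as a gene that TGF-beta signals induce, as a partner of beta-catenin and TCF factors in Wnt signalling, and as a factor that early B cell development needs. BCL9, the target of the hairpin, is a co-activator of beta-catenin, and the series was set up to study it as a target of miR-30-5p.

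The sequences that the results refer to are the stretch just before the start of the SOX4 gene and the guide strands of the transfected miR-30. In the 250 bases before the SOX4 start site (RefSeq, GRCh38.p14, chr6:21593501-21593750, plus strand), the capitals mark the letters CCAAT or their reverse complement ATTGG, the core of the CCAAT box, a common promoter element.
SOX4 promoter: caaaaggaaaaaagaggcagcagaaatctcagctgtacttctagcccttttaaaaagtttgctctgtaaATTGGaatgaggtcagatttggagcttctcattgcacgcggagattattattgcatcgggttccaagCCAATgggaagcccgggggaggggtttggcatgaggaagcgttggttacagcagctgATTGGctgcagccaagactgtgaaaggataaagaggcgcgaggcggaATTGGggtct
These letters occur 4 times, and at least 4 matches were found in 0.874% of 35116 promoters of the same length, while 32% of them held at least 1. The E-box CANNTG, whose matches here do not overlap the capitals, occurs 2 times, and 61.8% of promoters held it. On neither strand did this window hold ATCAAAG, the core that TCF and LEF factors bind (2.26% of promoters), AACAAT, a SOX core (8.98%), TATAAA (10.7%) or GTCTAGAC, a pair of SMAD boxes (0.182%).

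The mature 5p strands of 3 members of the miR-30 family are shown because they are the agents of the transfected arm, with the seed, bases 2 to 8, in capitals. They share 1 seed.
hsa-miR-30a-5p: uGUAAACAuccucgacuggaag
hsa-miR-30c-5p: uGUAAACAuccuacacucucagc
hsa-miR-30e-5p: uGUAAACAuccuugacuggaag

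Over the whole array, replicates had Pearson r of 0.997 to 0.998, shBCL9 with shGFP arrays at 0.989 to 0.992, miR-30 with cel-miR-67 arrays at 0.996 to 0.997, and arrays of different arms at 0.968 to 0.979. Plasma cell markers were high in all groups. The mean of 8 plasma cell markers, such as SDC1, CD38 and IRF4, lay between 11.72 and 12.29 over the arrays, and those of 7 B cell precursor, 4 mature B cell, 4 T and NK cell, 4 stromal and 4 epithelial markers lay between 4.19 and 5.66. BCL9, read by 1 probe set, measured 7.88 ± 0.01 in shGFP and 7.73 ± 0.12 in shBCL9 (SD, n = 3 each), a difference of -0.15 that limma did not call (adjusted p = 0.162). It measured 7.82 ± 0.04 with cel-miR-67 and 7.96 ± 0.11 with miR-30 (SD, n = 3 each; limma adjusted p = 0.48), so neither treatment was shown to lower BCL9 RNA at this probe set.

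The brightest SOX4 probe set, 201417_at, was low in shGFP and high in the other 3 groups. All levels are log2 intensities, on which a step of 1 is a doubling of the signal. In shGFP it read 7.27, 7.28 and 7.30, and in shBCL9 9.51, 9.62 and 9.45. With cel-miR-67 it read 9.90, 9.96 and 9.91, and with miR-30 10.20, 10.25 and 10.25. No 2 groups overlapped, and the order from low to high was shGFP, shBCL9, cel-miR-67 and miR-30. The shGFP mean lay 2.24 below the shBCL9 mean, whereas the shBCL9 mean lay 0.40 below the cel-miR-67 mean, so the group that stood apart was the hairpin control. Between the highest shGFP array and the lowest of the other 9 arrays there was a gap of 2.15.

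**Figure D1:**
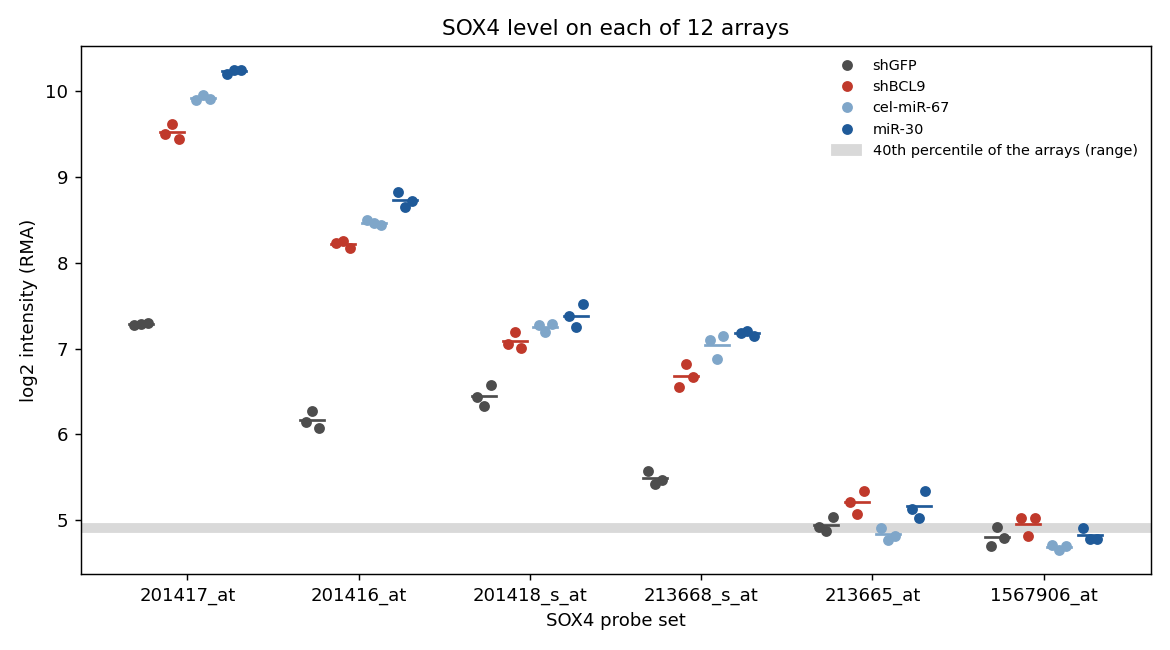
SOX4 log2 intensity (y axis) of the 6 SOX4 probe sets (x axis) on each of 12 arrays, with points for arrays, a short line for each group's mean and a grey band for the range of the arrays' 40th percentiles. In the 4 probe sets on the left the 3 shGFP arrays lie below all other arrays, and the 2 on the right lie near the grey band in every group.

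Probe set 201416_at showed the same order. It read 6.15, 6.27 and 6.08 in shGFP, 8.23, 8.25 and 8.17 in shBCL9, 8.50, 8.47 and 8.44 with cel-miR-67, and 8.83, 8.66 and 8.72 with miR-30. Again no 2 groups overlapped. Probe set 213668_s_at, whose suffix marks probes that can match more than 1 transcript, read 5.58, 5.42 and 5.46 in shGFP and 6.55, 6.82 and 6.67 in shBCL9. With cel-miR-67 it read 7.10, 6.88 and 7.14, and with miR-30 7.18, 7.21 and 7.14. Its highest cel-miR-67 array and its lowest miR-30 array were equal to 2 decimals, so these neighbours in the order did not differ beyond their spread. Probe set 201418_s_at had the smallest step of the 4, with 6.44, 6.33 and 6.57 in shGFP and 7.05, 7.20 and 7.01 in shBCL9. It read 7.28, 7.20 and 7.29 with cel-miR-67 and 7.38, 7.25 and 7.52 with miR-30. Here only shGFP was separate, since shBCL9 overlapped cel-miR-67 and cel-miR-67 overlapped miR-30.

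The other 2 SOX4 probe sets lay near the 40th percentile of their arrays and did not set shGFP apart. Probe set 213665_at averaged 4.94 ± 0.09 in shGFP, 5.21 ± 0.14 in shBCL9, 4.83 ± 0.07 with cel-miR-67 and 5.16 ± 0.16 with miR-30 (SD, n = 3 each). Probe set 1567906_at averaged 4.80 ± 0.11, 4.95 ± 0.12, 4.69 ± 0.03 and 4.82 ± 0.07 in the same groups (SD, n = 3 each). The 40th percentile of the arrays lay between 4.86 and 4.95, and these probe sets lay between the 35.8th and the 47.5th percentile of their arrays. In both, cel-miR-67 was lowest and shBCL9 highest. All 6 probe sets passed a filter at the 40th percentile in at least 3 arrays.

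Over the 12 arrays, the 4 brighter probe sets followed each other with Pearson r between 0.962 and 0.997, as a description. The points share 4 groups, and within groups these correlations lay between -0.14 and 0.39, so the likeness came from the group levels. Probe sets 213665_at and 1567906_at correlated with those 4 at r between -0.12 and 0.29, and with each other at 0.68.

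Between shBCL9 and shGFP, the difference depended on the probe set. It was 2.24 (SE 0.06, 4.72-fold) for 201417_at, 2.05 (SE 0.07, 4.15-fold) for 201416_at, 1.19 (SE 0.09, 2.29-fold) for 213668_s_at and 0.64 (SE 0.09, 1.56-fold) for 201418_s_at. The dim probe sets gave 0.27 (SE 0.09) for 213665_at and 0.15 (SE 0.08) for 1567906_at. In 5 of 6 probe sets all shBCL9 arrays lay above all shGFP arrays, as in 19.9% of all probe sets, a count that bears on nothing further because this comparison led to the choice of the gene. The mean of the 6 probe sets was 5.85 ± 0.02 in shGFP and 6.95 ± 0.02 in shBCL9 (SD, n = 3 each), a difference of 1.09. By its brightest probe set SOX4 ranked 8 among 19775 genes by the size of its rise.

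**Figure D2:**
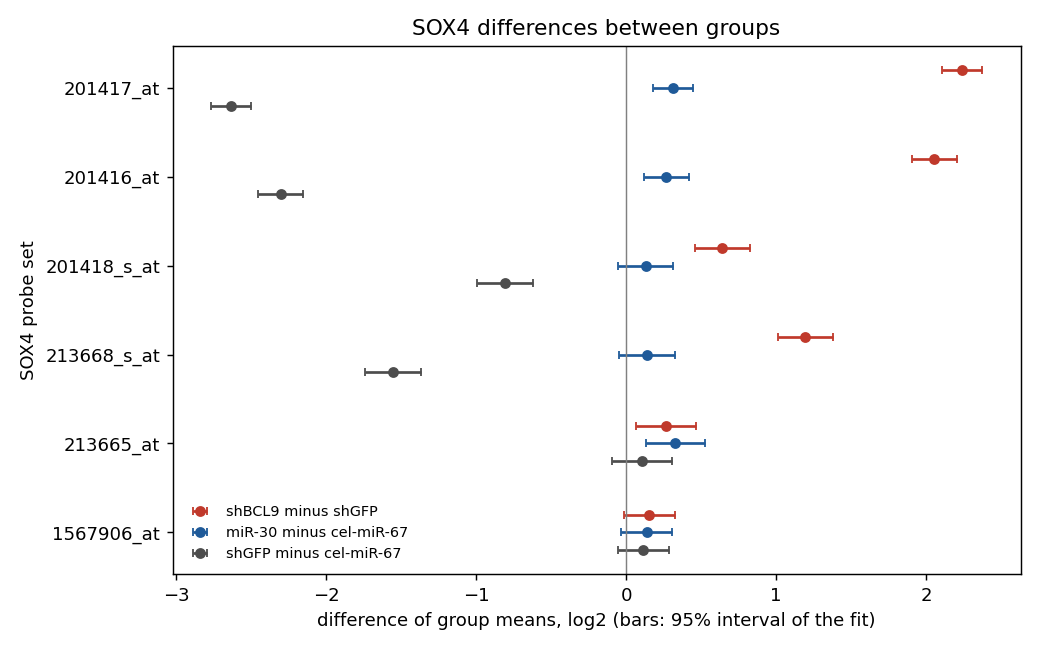
Difference of group means on the log2 scale (x axis) for each SOX4 probe set (y axis), with the 95% interval from the fit over all probe sets, for shBCL9 against shGFP, for miR-30 against cel-miR-67 and for shGFP against cel-miR-67, the second subtracted from the first. The hairpin control lies below both shBCL9 and cel-miR-67 in the 4 upper probe sets, and the miR-30 differences are small in all 6.

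Of 3 signs of RNA quality, the ACTB and 18S signals differed between shGFP and shBCL9, and the GAPDH signal did so by less than its spread. For ACTB, the 3' control probe set exceeded the 5' one by 1.30 ± 0.11 in shGFP, 1.67 ± 0.08 in shBCL9, 2.16 ± 0.09 with cel-miR-67 and 2.07 ± 0.01 with miR-30 (SD, n = 3 each), so it too was lowest in shGFP. The same gap for GAPDH was 0.136 ± 0.019, 0.131 ± 0.021, 0.179 ± 0.036 and 0.203 ± 0.040 in these groups (SD, n = 3 each). The 18S rRNA probe sets read 12.38 ± 0.07, 13.23 ± 0.02, 12.50 ± 0.05 and 12.64 ± 0.04 (SD, n = 3 each). When this ACTB gap entered the fit as a covariate, the SOX4 difference at 201417_at was 2.10 (SE 0.14), and with the 18S signal, added after the data were seen, 2.39 (SE 0.48). The ACTB gap ran from 1.17 to 1.36 in shGFP and from 1.59 to 1.75 in shBCL9, with no overlap. A fit with it can therefore hardly tell the gap from the group. Calls lost or sizes shifted with this covariate do not show an effect of RNA quality. Of 7 B cell precursor markers, DNTT (0.26) and VPREB1 (0.56) were called higher in shBCL9 than in shGFP, where 11.5% of all genes were called higher and 15% lower. VPREB1 read 4.38 in shGFP and 4.94 in shBCL9 and did not pass the filter at the 40th percentile. DNTT read 4.88 in shGFP, near the 40th percentile level, and 5.14 in shBCL9. Of its 3 probe sets 1 was called, and the mean of the 3 differences was 0.12. PAX5 was not called at its brightest probe set (0.15), but 1 of its 2 probe sets was called higher, for a mean of 0.22. The mean of the 7 lay between 5.02 and 5.19 in shGFP, 5.20 and 5.21 in shBCL9, 4.83 and 4.94 with cel-miR-67 and 4.85 and 5.00 with miR-30. Of the 8 plasma cell markers 3 were called higher, SDC1 (0.88), CD38 (0.71) and SLAMF7 (0.60), and PRDM1 (-0.22) and TNFRSF17 (-0.18) lower, or 62.5% against 26.6% of all genes. PRDM1 was called at 1 of its 3 probe sets. IRF4 was not called at its brightest probe set (0.14), but 1 of its 3 probe sets was called lower, for a mean of -0.09. The mean of the 8 lay between 12.03 and 12.08 in shGFP, 12.27 and 12.29 in shBCL9, 11.78 and 11.81 with cel-miR-67 and 11.72 and 11.77 with miR-30. Of 4 mature B cell markers only CD22 was called (0.25 higher, limma adjusted p = 0.0269). None of the T and NK cell, stromal and epithelial markers was called at its brightest probe set. At an unadjusted p under 0.05 there was 1 of these 12, and 39.1% of all genes. The part of these markers in the SOX4 result was not tested. In these bulk arrays more cells with SOX4 RNA and more RNA per cell cannot be told apart.

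The level of SOX4 in the control arrays differed between the arms. The difference of shGFP minus cel-miR-67 was -2.63 (SE 0.06, 6.21-fold lower) at 201417_at, -2.30 (SE 0.07) at 201416_at, -1.55 (SE 0.09) at 213668_s_at and -0.81 (SE 0.09) at 201418_s_at. It was 0.11 at both 213665_at (SE 0.09) and 1567906_at (SE 0.08). Infection with sorting and transfection each belong to 1 arm, so the arm and the control agent cannot be told apart. The 2 comparisons with shGFP share the shGFP arrays, and a low shGFP level enters both.

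How often 1 group of the 4 stood apart was counted over the 19775 genes, each by its brightest probe set. All 3 shGFP arrays lay below the other 9 in 1111 genes (5.62%) and above them in 1334 (6.75%). All 3 shBCL9 arrays lay below the other 9 in 2678 genes (13.5%) and above in 2483 (12.6%). For cel-miR-67 the shares were 4.11% below and 6.69% above, and for miR-30 3.47% and 2.2%. With a distance of at least 1 between the group's mean and the nearest other mean, shGFP was lowest in 36 genes (0.182%), of which SOX4 was the third by distance, and highest in 59 (0.298%). By the same measure shBCL9 was highest in 22 genes (0.111%) and lowest in 121 (0.612%), and neither transfected group stood apart in any gene.

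SOX4 was higher with miR-30 by a small amount in the transfected arm, which holds other arrays than the infected arm. The gene was chosen with earlier results of these data known, and whether these included this arm is not stated. The p-values of this arm are therefore not an independent test. At 201417_at the difference was 0.31 (SE 0.06, 1.24-fold, 95% interval 0.18 to 0.44), all 3 miR-30 arrays lay above all 3 cel-miR-67 arrays, and limma called it over all 54675 probe sets (adjusted p = 0.034). Of all probe sets 0.814% were called in this comparison, and 0.503% were called higher. The call did not hold when any 1 of the 6 arrays of the arm was left out (adjusted p = 0.0728 to 0.128, difference 0.30 to 0.33), nor with arrays centred on their medians (0.30, adjusted p = 0.061). It was also lost with the replicate number as a block. The other probe sets were not called: 201416_at measured 0.27 (adjusted p = 0.108), 213665_at 0.33 (0.135), 213668_s_at 0.14 (0.558), 1567906_at 0.14 (0.519) and 201418_s_at 0.13 (0.588), all adjusted p-values by limma. In 5 of 6 SOX4 probe sets all miR-30 arrays lay above all cel-miR-67 arrays, as in 8.56% of all probe sets, but the probe sets read the same RNA and are not independent. The mean of the 6 was 7.03 ± 0.04 with cel-miR-67 and 7.25 ± 0.05 with miR-30 (SD, n = 3 each), with no test made for the mean. A lower SOX4 RNA with miR-30 lay outside the 95% intervals of 201417_at, 201416_at and 213665_at, and the intervals of the other 3 reached down to -0.06 at most.

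Among the other genes of the SOX family, which share the HMG box, no change of the size of SOX4 was seen. Of 18 measured genes other than SOX4, 2 were called lower and 0 higher between shBCL9 and shGFP (limma, adjusted p under 0.05), or 11.1% against 26.6% of all genes. At an unadjusted p under 0.05 there were 6 of the 18, and 39.1% of all genes. Their median difference was 0.04, as it was over all genes (0.04). Their group means lay between 3.08 and 7.20, and 7 of the 18 lay under the 40th percentile level in every group. SOX11, the closest relative of SOX4 with SOX12, fell by 0.51 (SE 0.11, limma adjusted p = 0.0052), from 7.18 ± 0.15 in shGFP to 6.67 ± 0.17 in shBCL9 (SD, n = 3 each). With the ACTB gap as a covariate the SOX11 difference was -0.96 (SE 0.23, adjusted p = 0.027). With cel-miR-67 it measured 6.33 ± 0.15 and with miR-30 6.53 ± 0.18 (SD, n = 3 each), so that SOX11 was highest in the group in which SOX4 was lowest. Its probe set 204914_s_at also fell, by 0.45 (adjusted p = 0.00791 in limma), and 204915_s_at measured -0.21 (adjusted p = 0.276). SOX12, the third member of group C, measured -0.22 (adjusted p = 0.123). SOX9 was not called at its brightest probe set (0.21, limma adjusted p = 0.14), but 1 of its 2 probe sets was called higher. The mean of the 2 SOX9 differences was 0.26.

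SOX6, a group D factor, fell by 0.34 at its brightest probe set (SE 0.10, limma adjusted p = 0.0256), but another of its 8 probe sets rose (0.22, adjusted p = 0.0381), and the mean of the 8 differences was 0.035. The SOX6 call was lost after a further quantile normalization, with the ACTB covariate and when shGFP replicate 2, shBCL9 replicate 2 or shBCL9 replicate 3 was left out (highest adjusted p over all alternatives 0.689). Between miR-30 and cel-miR-67, limma called 0 of these 18 genes, against 1.17% of all genes, with 3 at an unadjusted p under 0.05, which 14.5% of all genes reached. The differences ran from -0.24 for SOX3 to 0.35 for SOX30, which lay under the 40th percentile level in every group.

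**Figure D3:**
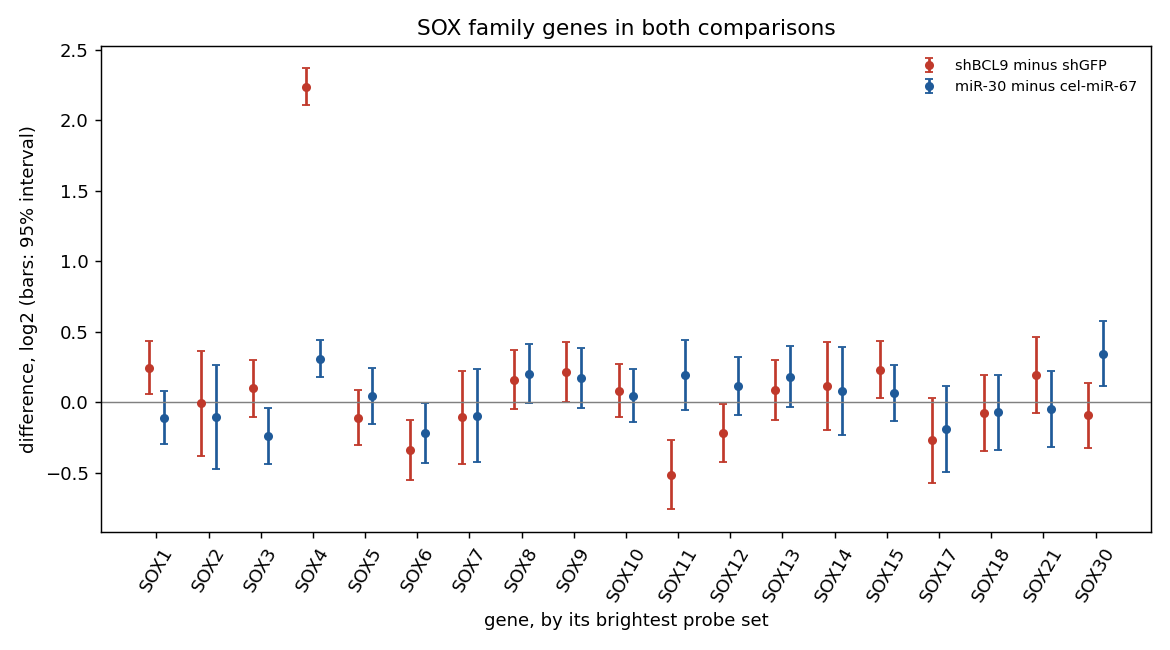
Differences on the log2 scale (y axis) with 95% intervals for SOX4 and the 18 other SOX family genes (x axis), each by its brightest probe set, between shBCL9 and shGFP and between miR-30 and cel-miR-67. SOX4 lies at 2.24 in the hairpin comparison, and the other genes lie between -0.51 and 0.24 in it.

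Of 10 genes upstream of SOX4 or encoding its partners, 1 rose and 2 fell with shBCL9, and 7 did not pass the test. The share called, 30%, was near that of all genes, 26.6%, and the median difference was -0.14. An unadjusted p under 0.05 was reached by 6 of the 10 and by 39.1% of all genes. TGFBR2, a receptor of TGF-beta, which induces SOX4, rose by 0.59 (SE 0.06, limma adjusted p = 1.27e-05). It read 7.87 ± 0.06 in shGFP, 8.46 ± 0.05 in shBCL9, 8.37 ± 0.04 with cel-miR-67 and 8.44 ± 0.06 with miR-30 (SD, n = 3 each), and its other probe set measured 0.02 (adjusted p = 0.944), for a mean of 0.30 over both. The other receptor gene, TGFBR1, measured -0.17 (adjusted p = 0.108) and the ligand gene TGFB1 0.11 (adjusted p = 0.351), neither of them called. The SMAD genes SMAD2, SMAD3 and SMAD4 measured -0.11, 0.01 and -0.20, and none was called at its brightest probe set. Of their other probe sets, 1 of SMAD2 and 1 of SMAD3 were called higher. The mean difference was -0.07 over the 6 SMAD2 probe sets and 0.17 over the 4 of SMAD3. With the ACTB difference as a covariate TGFBR2 was not called (adjusted p = 0.0693).

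TCF7L2, a TCF factor that binds beta-catenin, fell by 1.17 in shBCL9 (SE 0.14, limma adjusted p = 4.62e-05). It read 5.66 ± 0.09 in shGFP and 4.49 ± 0.15 in shBCL9 (SD, n = 3 each), the latter under the 40th percentile level, so the size of the fall rests on values near that level. In all, 4 of its 7 probe sets were called lower and none higher, and the mean of the 7 differences was -0.36 (adjusted p = 0.00066). CTNNB1, which encodes beta-catenin itself, measured -0.10 (adjusted p = 0.296) at its brightest probe set, while its other 2 probe sets were called lower. SDCBP, which encodes syntenin, a protein that binds SOX4, fell by 0.18 (limma adjusted p = 0.0497). The SDCBP call was lost with only the arm's 6 arrays, with a replicate block and with the ACTB covariate (-0.34, adjusted p = 0.129). It was also lost when any array of the arm except shGFP replicate 1 was left out (highest adjusted p over all alternatives 0.139). LEF1 measured -0.17 (adjusted p = 0.0837) at its brightest probe set, while 1 of its 3 probe sets was called higher. The mean of the 3 LEF1 differences was 0.02. Between miR-30 and cel-miR-67, limma called 0 of the 10, against 1.17% of all genes. At an unadjusted p under 0.05 there was 1 of the 10, and 14.5% of all genes.

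Genes reported as SOX4 targets in other cell types did not rise together where SOX4 was higher. Of 17 measured, 1 rose and 2 fell between shBCL9 and shGFP (17.6%, against 26.6% of all genes), and their median difference was 0.02. An unadjusted p under 0.05 was reached by 7 of the 17 and by 39.1% of all genes. DHX9 and PTCH1 were not called at their brightest probe sets. Of their other probe sets, 1 of DHX9 was called higher and 1 of PTCH1 lower. SEMA3C, which encodes a secreted semaphorin, fell by 0.56 (SE 0.09, limma adjusted p = 0.000428), from 8.31 ± 0.16 to 7.75 ± 0.04 (SD, n = 3 each), with 1 of its 2 probe sets called. As the mean of both the SEMA3C difference was -0.29, and with the ACTB covariate -0.88, and it was called in either case. AGO1, an Argonaute gene of microRNA silencing, fell by 0.67 (SE 0.08, limma adjusted p = 2.72e-05), with 2 of 4 probe sets lower and a mean of -0.22. The AGO1 call was not made with the ACTB difference as a covariate (adjusted p = 0.0704). FZD5, a Wnt receptor gene, rose by 0.26 (adjusted p = 0.0428), but its arrays overlapped. The FZD5 call was lost with arrays centred on their medians, with only the arm's 6 arrays, with a replicate block and with the ACTB covariate. It was also lost when shGFP replicate 1 or 2, or shBCL9 replicate 1 or 2, was left out (highest adjusted p over all alternatives 0.984).

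EZH2, a histone methyltransferase gene that SOX4 is known to activate, measured 0.15 in shBCL9 (adjusted p = 0.102) and 0.21 with miR-30 (adjusted p = 0.179), neither of them called. RAG1 and RAG2, the recombinase genes that SOX4 activates in early B cells, lay between 2.46 and 3.71 in all groups, under the 40th percentile level. The stromal matrix gene TNC was 4.55 in shGFP and 4.77 in shBCL9 but 9.16 with cel-miR-67 and 8.80 with miR-30, so its largest step lay between the arms. Within the arms its differences were not called, 0.22 with shBCL9 (limma adjusted p = 0.163) and -0.36 with miR-30 (limma adjusted p = 0.169). All miR-30 arrays lay below all cel-miR-67 arrays. In the miR-30 comparison limma called 0 of the 17 targets, against 1.17% of all genes, with 7 at an unadjusted p under 0.05, which 14.5% of all genes reached.

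A chosen list of genes around SOX4 on chromosome 6 gives the setting of the gene. Of 10 measured, 3 rose and 0 fell between shBCL9 and shGFP, with a median difference of 0.08. The share called, 30%, was near that of all genes, 26.6%. Of all genes 11.5% were called higher and 15% lower. At an unadjusted p under 0.05 there were 4 of the 10, and 39.1% of all genes. CDKAL1 and the long noncoding RNA gene CASC15, the nearest of the 10 on either side, measured -0.13 (adjusted p = 0.259) and 0.07 (adjusted p = 0.7). Neither was called at its brightest probe set, while 1 of the other 3 CDKAL1 probe sets was called lower. MBOAT1, an acyltransferase gene, rose by 0.46 (SE 0.07, limma adjusted p = 0.00051), and the cell cycle factor gene E2F3 by 0.26 (SE 0.06, adjusted p = 0.00936), both with all shBCL9 arrays above all shGFP arrays. The noncoding RNA gene NBAT1 rose by 0.46 near the 40th percentile level, from 4.88 ± 0.31 to 5.34 ± 0.07 (SD, n = 3 each; limma adjusted p = 0.0225). Its call was lost with only the 6 arrays of the arm (adjusted p = 0.0507) and without shGFP replicate 2 or 3, or shBCL9 replicate 1 or 3 (highest adjusted p over all alternatives 0.102). With the ACTB difference as a covariate, only NBAT1 of the 3 was called (1.11), and MBOAT1 (adjusted p = 0.278) and E2F3 (adjusted p = 0.605) were not. With miR-30, limma called 0 of the 10, against 1.17% of all genes. At an unadjusted p under 0.05 there was 1 of the 10, and 14.5% of all genes.

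The genes whose levels were most like those of SOX4 were found by the Pearson correlation with 201417_at over the 12 arrays, among 14724 genes above the 40th percentile of their array in at least 3 arrays. This is a description over arrays that share 4 groups. The 5 highest were STAT4 (r = 0.997), a transcription factor gene of cytokine signalling, RAB31 (0.994), a vesicle transport gene, SPATS2L (0.993), FBXL13 (0.992) and PDLIM3 (0.991). The 3 lowest were PARM1 (-0.996), MACROD2 (-0.995), which encodes an ADP-ribose hydrolase, and HEG1 (-0.992). In all, 84 genes had r above 0.95 and 98 had r below -0.95.

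STAT4 measured 8.95 in shGFP, 9.95 in shBCL9, 10.08 with cel-miR-67 and 10.18 with miR-30, steps of less than the size of those of SOX4 in the same order. FBXL13 came closest in size, with 4.62, 7.01, 7.73 and 7.83, its shGFP level lying under the 40th percentile level. MACROD2 ran the other way, with 10.87, 7.0, 6.21 and 6.15. In each of these, as in SOX4, the hairpin control stood apart from the other 3 groups. They were chosen by their correlation with SOX4, so this likeness follows from the choice.

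**Figure D4:**
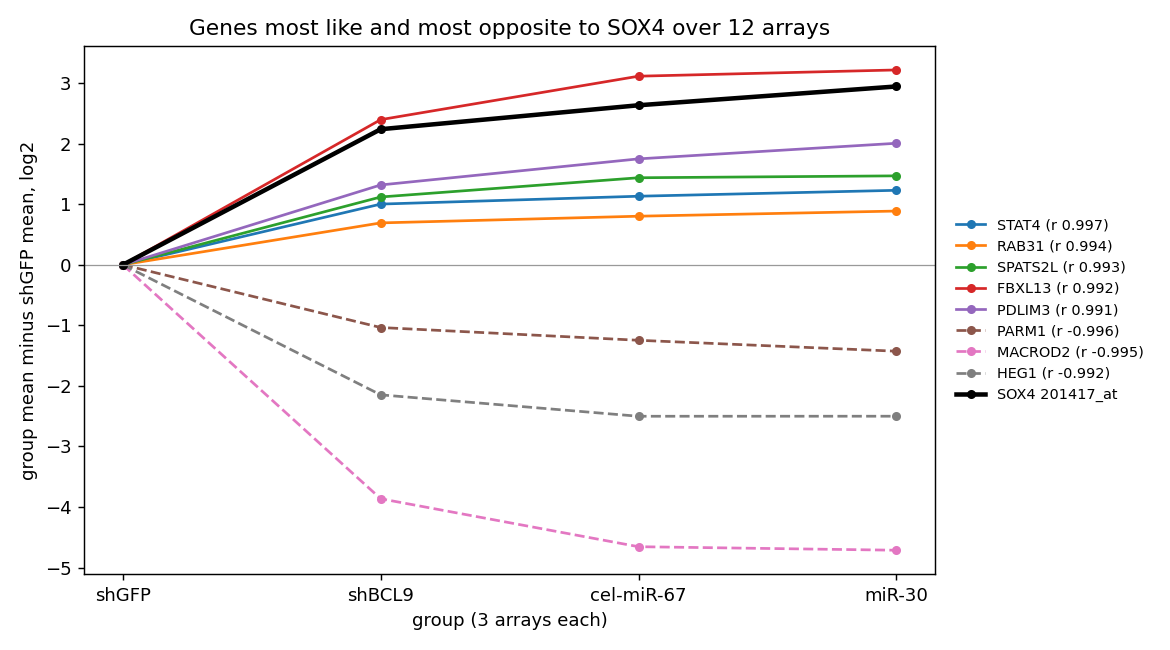
Group mean minus the shGFP mean on the log2 scale (y axis) in the 4 groups (x axis) for SOX4 at 201417_at, the 5 genes with the highest and the 3 with the lowest Pearson correlation with it over 12 arrays. Lines join the groups only to guide the eye, and the step from shGFP to shBCL9 is the largest step of every line.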

How the data were processed

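Per the labels' protocols, Trizol was used to extract total RNA, and a biotin label was put in by in vitro transcription from the 3' end. The authors deposited log2 intensities, and the submitters' processing notes name RMA and affy without a version. They were used without further scaling; array medians lay between 5.46 and 5.53, and no pair of arrays shared more than 90 equal values. The number of arrays limits the precision.

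Of the probe sets, 41097 had 1 gene symbol, 1801 several and 11777 none in the platform table; symbols were checked by gene ID against RefSeq (GRCh38.p14), which changed 0. Sequences are from RefSeq tables. Each gene was read by its brightest probe set, judged by the mean of all arrays. The model had 1 mean for each group and took in 12 arrays and 54675 probe sets, with no filter on low values, in limma 3.58.1 under R 4.3.3 (lmFit, eBayes), with Benjamini-Hochberg adjustment over all of them, and an adjusted p under 0.05 was called. Intervals are 95% intervals of this fit. In simulated data of the shBCL9 comparison at log2 changes of 0.25, 0.5, 1 and 2 it recovered 4, 37, 50 and 50 of 50 probe sets, with 5 false calls. For the miR-30 comparison these were 1, 34, 50 and 50, with 5 false calls. Only 50 probe sets were changed at each size, whereas 26.6% of genes were called in the real shBCL9 comparison. The adjusted p depends on the share that changes, so these counts do not carry over to that comparison.

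The members and lists were chosen with earlier results of these data known. The text names all SOX4 probe sets, BCL9, called genes of the lists, uncalled ones where a value is needed, and the genes most and least correlated with SOX4. Of 12 upstream signals and partners, 10 had a probe set of their own here. Alternatives were other normalizations, filters, arrays in the fit, a replicate block, array weights, a variance trend, RNA quality covariates, other probe sets, a gene's mean over its probe sets and leaving out each array. Figures were drawn with matplotlib 3.10.9.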

Additional observations from a re-analysis of the deposited data

Results flagged for a closer look

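Of 12 genes named from the lists or as the target, each tested for a difference between its miR-30 effect and its shBCL9 effect, 6 passed in limma (adjusted over all probe sets), and SOX4 was left out because its hairpin effect led to its choice. Of the 12, all but BCL9 were themselves named for a call in the shBCL9 comparison, so these tests are not independent of that choice. Over all genes 13.9% passed the same test, and 47% of the 5251 genes called in the shBCL9 comparison did. The miR-30 effect minus the shBCL9 effect was 0.71 for SOX11 (adjusted p = 0.0115), with effects of 0.19 and -0.51. For TCF7L2 it was 1.25 (adjusted p = 0.00109), with effects of 0.07 and -1.17, and for SEMA3C 0.92 (adjusted p = 0.000329), with 0.35 and -0.56. AGO1 gave 0.61 (adjusted p = 0.00198), with effects of -0.05 and -0.67. TGFBR2 gave -0.52 (adjusted p = 0.00156), with effects of 0.07 and 0.59, and MBOAT1 -0.59 (adjusted p = 0.00212), with effects of -0.13 and 0.46.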

How the results depend on the processing

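The shBCL9 minus shGFP difference of SOX4 at 201417_at, 2.24, was 2.10 with the ACTB covariate and 2.39 with the 18S covariate, which was added after the data were seen. By the other probe sets it was 2.05, 1.19, 0.64, 0.27 and 0.15, and without 1 array it lay between 2.19 and 2.28. The means of the 6 probe sets moved by less than their spread under every alternative run, and without 1 array lay between 1.08 and 1.10 in the infected arm and between 0.19 and 0.25 in the transfected arm.

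The miR-30 minus cel-miR-67 difference at 201417_at, 0.31, was not called with arrays centred on the median (0.30), with only the 6 arrays of the arm (0.31, adjusted p = 0.108), with the 18S covariate (0.33, adjusted p = 0.356) or, as a range, without 1 array (0.30 to 0.33). The other probe sets gave 0.27, 0.33, 0.14, 0.14 and 0.13, none called. With the replicate number as a block the difference was 0.31 (adjusted p = 0.0511). Whether the numbers pair the arrays is not stated. Deviations of same-numbered arrays correlated at 0.033 to 0.068 in the infected arm and at 0.043 to 0.19 in the transfected arm. Those of differently numbered arrays correlated at -0.093 to 0.036 and at -0.20 to 0.088 in these arms. Most arrays, but not every array, correlated best with their own number, so a pairing was neither shown nor excluded. The block ended the hairpin calls of SDCBP (adjusted p = 0.0576) and FZD5 (adjusted p = 0.0616) and changed no count of the lists by over 1.5 times.

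Of the SOX family, 2 genes were called in the hairpin comparison, 1 after a further quantile normalization, 4 with array weights, 1 at an adjusted p under 0.01 and 1 to 2 without 1 array. Of the upstream signals and partners 3 were called, 5 with array weights, 5 with a variance trend, 5 with the filter at the 60th percentile, 1 with the ACTB covariate and 2 to 3 without 1 array. Of the reported targets 3 were called, and under the same settings 6, 6, 5 and 1, with 2 to 4 without 1 array. Of the neighbours 3 were called, 1 with the ACTB covariate, 5 as means of probe sets and 2 to 3 without 1 array. In the miR-30 comparison, where 0 were called, the variance trend and the filter at the 60th percentile each gave 1 partner, 2 targets and 1 neighbour. In sign, SOX6 turned as the mean of its probe sets (0.035) and FZD5 with the ACTB covariate (-0.0089). Uncalled miR-30 effects that turned were FZD5 with the ACTB covariate (0.025) and, without 1 array, TCF7L2 (-0.10 to 0.22), FZD5 (-0.087 to 0.012) and AGO1 (-0.11 to 0.017). The cause of these shifts was not tested.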
